A study of Mus musculus with 4 samples.

Results

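NuRD (nucleosome remodelling and deacetylase) is a chromatin complex, and 10 genes that encode its subunits are described here: Chd3, Chd4, Mta1, Mta2, Mta3, Hdac1, Hdac2, Gatad2a, Gatad2b and Mbd3. They were picked by name, by their place in the complex, and all 10 have a row among the 22690 genes of the deposited table. All 10 also reached the level filter that 14480 genes passed, a mean normalized read count of at least 10. The RNA came from retinal cells of C57BL/6 mice at postnatal day 2, kept briefly in serum-free medium and sorted as 4N cells, which have copied their DNA and not yet divided. The cells of interest were GFP-positive and labelled Casz1 cKO, a conditional knockout of the zinc finger transcription factor Casz1, with 2 libraries. The cells they were set against were GFP-negative and labelled wild type, also with 2 libraries. GFP status and genotype therefore changed together and cannot be told apart, and the labels name neither the Cre driver nor the number of animals behind a library. The design text speaks of independent experiments without tying a library to one, so p-values measure the spread between these libraries, which may be technical. The names of the columns carry 1 of 2 tags, here A and B, and each tag marks 1 cKO and 1 wild-type library.

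NuRD joins an ATP-driven nucleosome remodeller (CHD3, CHD4 or CHD5) to the histone deacetylases HDAC1 and HDAC2. MTA proteins are the scaffold that binds the deacetylases, GATAD2 proteins link the remodeller to the rest, and MBD2 or MBD3, which exclude each other, complete the core together with the histone chaperones RBBP4 and RBBP7. Paralogues within a family can replace one another in the complex. In the zebrafish retina, Hdac1 is needed for progenitors to leave the cell cycle, and human CASZ1 has been reported to bind NuRD subunits.

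Reads in genes numbered 22326119 in cKO library A, 89473701 in cKO library B, 75832360 in wild-type library A and 83753377 in wild-type library B. Across genes cKO library A stood apart, with a Pearson correlation of log2 values with the others of 0.902 to 0.918, where each of the other 3 libraries reached at least 0.990 with one of the rest. Casz1 had 8687 and 10772 normalized counts in cKO libraries A and B, against 13162 and 11995 in the wild-type ones, a log2 fold change of −0.38 ± 0.19 (SE; limma, adjusted p = 0.771). Reads over the whole gene do not measure the deleted part. The list of 10 progenitor genes had the highest summed level of the marker lists, 636699 and 509300 normalized counts in cKO libraries A and B, against 466554 and 460906 in wild-type libraries A and B. Most of that gap lay in the cyclin gene Ccnd1, with 388895 and 253407 counts in cKO libraries A and B and 235937 and 223698 in wild-type libraries A and B. Without it the other 9 genes summed to 247804 and 255893 in cKO libraries A and B and to 230617 and 237209 in wild-type libraries A and B. Microglial markers differed between the groups, with 12 of 12 lower in cKO. They summed to 1375 and 9377 in cKO libraries A and B and to 21962 and 20743 in wild-type libraries A and B. Aif1 was at 0 in cKO library A. Rod and precursor markers were lower for 9 of 10, with sums of 78244 and 93630 in cKO libraries A and B and 139919 and 125985 in wild-type libraries A and B. Cone markers were lower for 7 of 7, with sums of 20335 and 31874 in cKO libraries A and B and 37515 and 48441 in wild-type libraries A and B. Cycling markers were higher for 7 of 8 and progenitor markers for 8 of 10, and 0 markers of any list passed limma's adjusted test. In such bulk samples fewer cells of a type and less RNA per cell cannot be told apart, and the part of these markers in the NuRD values was not tested.

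The NuRD subunits were transcribed at very unequal levels per length, and each family had a leading paralogue per kilobase of annotated exon. For Mta1 over Mta2 that lead depended on the length used, and for Hdac2 over Hdac1 it was uncertain because Hdac1 shares sequence with other genes. Levels are compared between genes as normalized counts per kilobase of annotated exon, with the union of all exons as length. Mbd3, the subunit that gives its name to the MBD3 form of the complex, had the highest level, 6135 ± 1891 per kilobase in cKO and 4944 ± 512 in wild type (SD, n = 2 each). Chd4, the ATPase, followed with 5335 ± 801 per kilobase in cKO and 5117 ± 628 in wild type (SD, n = 2 each). These neighbours did not differ beyond their spread, since Mbd3 was above Chd4 in 2 of 4 libraries. Mta1, Hdac2 and Mta2 came next, with means over all libraries of 4118, 3554 and 3292 per kilobase, and the ranges of each neighbouring pair overlapped. With the exon union as length a gap followed: the lowest Mta2 value, 3138, lay above the highest Hdac1 value, 2697. The lowest Hdac1 value, 1742, lay above the highest Chd3 value, 1607. The place of Hdac1 is uncertain, since 35.3% of the 50-base windows in its transcripts also occur in transcripts of other genes. Chd3 and Gatad2a overlapped, at means of 1407 and 1126 per kilobase. Mta3 and Gatad2b were last, at 337 and 278, and every Gatad2a value lay above every Mta3 value. Over all genes tested with a known length, the members' mean levels per kilobase stood between percentiles 43.5 and 97.1. With the longest transcript or the coding length in place of the exon union, Mbd3 stayed first, and Mta3 in place of Gatad2b was last with the coding length. The order between these ends moved with the length. With the longest transcript Hdac2 ranked 3 and Mta1 ranked 4, and the means of Mta2 and Hdac1 were 4299 and 3466 per kilobase. With the coding length Hdac2 ranked 2, Chd4 3, Mta2 4 and Mta1 5, and Gatad2a passed Chd3.

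**Figure D1:**
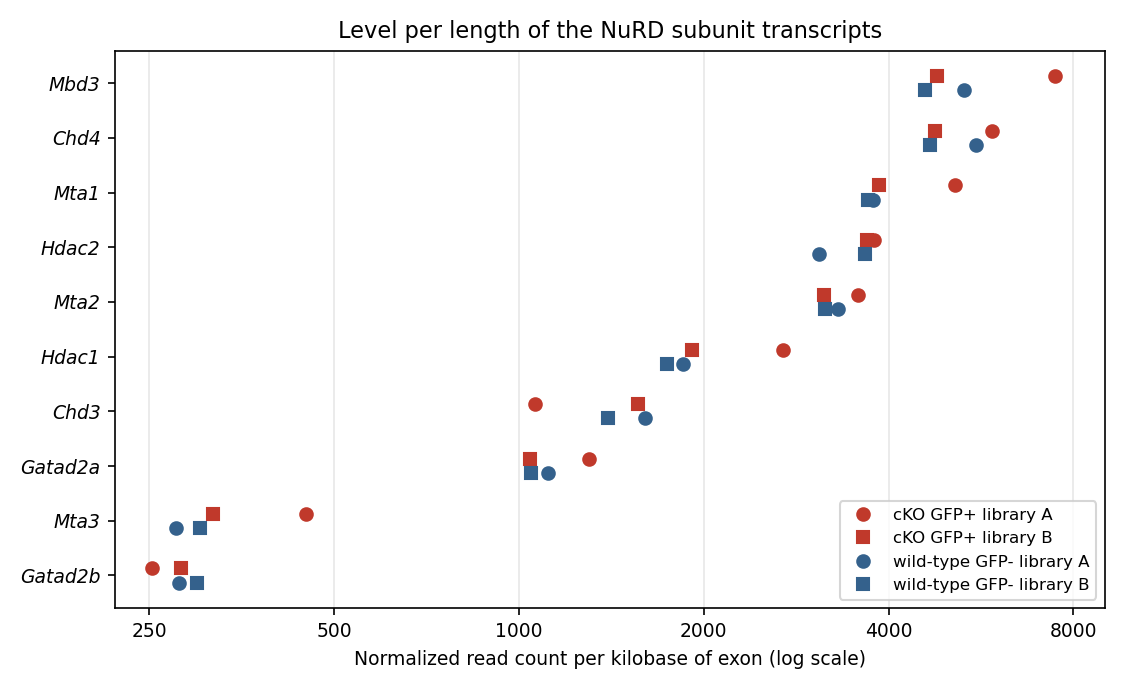
Normalized read counts per kilobase of annotated exon for the 10 NuRD subunit genes, on a log axis, with 1 point per library (red, cKO GFP-positive; blue, wild-type GFP-negative; circles, tag A; squares, tag B). Mbd3 and Chd4 lie highest and Mta3 and Gatad2b lowest in every library, and the red circle of cKO library A is farthest right for most genes.

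The stretches just upstream of the leading paralogue of each family are shown because these 5 genes had the highest level per kilobase of annotated exon in their families. Each run holds the 250 bases before the RefSeq transcript start on GRCm38.p6, 5′ to 3′ along the gene's strand. For Mbd3 the last 19 of these bases lie inside the first exon of the GENCODE annotation. Capitals mark matches, on either strand, to the GC box, CCAAT box, ETS, E2F or NRF1 motifs, which may overlap and are spelled out under the sequences, apart from the palindromic NRF1 motif.
Chd4, chr6:125095731-125095980, plus strand: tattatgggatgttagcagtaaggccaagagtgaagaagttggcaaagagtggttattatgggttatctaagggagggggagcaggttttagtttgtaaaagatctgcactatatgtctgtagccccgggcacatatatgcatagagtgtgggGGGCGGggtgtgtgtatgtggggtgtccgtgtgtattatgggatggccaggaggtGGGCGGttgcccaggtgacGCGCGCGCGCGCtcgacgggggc
Mta1, chr12:113098028-113098277, plus strand: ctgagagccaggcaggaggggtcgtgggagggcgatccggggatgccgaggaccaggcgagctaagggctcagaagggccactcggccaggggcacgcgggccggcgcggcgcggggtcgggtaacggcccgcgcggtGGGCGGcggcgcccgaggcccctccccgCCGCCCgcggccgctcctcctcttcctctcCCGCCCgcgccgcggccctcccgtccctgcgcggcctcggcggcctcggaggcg
Hdac2, chr10:36974294-36974543, plus strand: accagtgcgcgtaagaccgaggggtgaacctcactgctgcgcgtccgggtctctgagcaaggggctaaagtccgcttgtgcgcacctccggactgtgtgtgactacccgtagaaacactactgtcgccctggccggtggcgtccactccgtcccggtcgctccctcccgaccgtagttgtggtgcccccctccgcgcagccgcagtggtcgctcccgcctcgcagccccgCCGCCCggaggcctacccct
Gatad2a, chr8:69996385-69996634, minus strand: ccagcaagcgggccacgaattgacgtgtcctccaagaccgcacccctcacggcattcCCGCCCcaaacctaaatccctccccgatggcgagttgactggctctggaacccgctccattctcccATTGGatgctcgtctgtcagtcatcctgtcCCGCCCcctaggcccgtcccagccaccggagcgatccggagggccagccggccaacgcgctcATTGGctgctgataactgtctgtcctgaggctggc
Mbd3, chr10:80399532-80399781, minus strand: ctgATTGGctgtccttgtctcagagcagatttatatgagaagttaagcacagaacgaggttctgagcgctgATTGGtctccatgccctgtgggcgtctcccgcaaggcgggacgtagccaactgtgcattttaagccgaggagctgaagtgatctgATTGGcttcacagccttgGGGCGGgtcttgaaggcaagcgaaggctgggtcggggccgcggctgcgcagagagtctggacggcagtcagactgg
RefSeq's table held 7 of the 10 members (Chd4, Mta1, Mta2, Hdac2, Gatad2a, Gatad2b and Mbd3). The GC box, searched as GGGCGG, was found in 7 of these 7 windows, and in 32.7% of all 32851 promoter windows of the same length. The box whose letters are CCAAT was found in 3 of the 7 (Gatad2a, Gatad2b and Mbd3), against 33.9% of all windows, and the NRF1 motif in 2 (Chd4 and Mta2), against 4.98%. The ETS core, searched as CGGAAG, was in 1 window, that of Mta2, against 13.6% of all windows. The E2F site, searched as TTTNNCGC, was in 0 of the 7, against 4.28% of all windows. The median observed over expected CpG ratio was 0.842 in the 7 windows and 0.373 in all 32851, and the median GC content 60.4% and 52.4%. The shares over all windows were not matched for GC content or for expression, so they do not make the GC box a trait of NuRD genes. A match describes letters only, and no factor's binding was measured.

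The leading paralogue of each family was the same in all 4 libraries when levels were taken per kilobase of annotated exon. Chd4 made up 84.8% and 75.3% of the summed Chd3 and Chd4 level per length in cKO libraries A and B, against 77.6% and 77.0% in wild-type libraries A and B. Only cKO library A stood out among these 4, and cKO library B lay below both wild-type libraries. In the MTA family, Mta1 took 56.1% and 52.7% in cKO libraries A and B and 51.3% and 51.7% in wild-type libraries A and B. Mta2 took 39.0% and 42.9% in cKO libraries A and B and 44.9% and 44.0% in wild-type libraries A and B. Mta3 took 4.93% and 4.34% in cKO libraries A and B and 3.75% and 4.22% in wild-type libraries A and B. The MTA shares thus did not overlap between the groups, with Mta1 and Mta3 higher and Mta2 lower in both cKO libraries. The steps at tag B were 0.98, 0.12 and −1.11 percentage points for Mta1, Mta3 and Mta2. Wild-type library A minus wild-type library B gave −0.40, −0.47 and 0.87 points in the same order. These shares are parts of the same sum, so they are not independent of one another.

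Hdac2 led Hdac1 in the counts as deposited. Hdac1 made up 41.6% and 34.1% of the Hdac1 and Hdac2 level per length in cKO libraries A and B, against 37.5% and 32.2% in wild-type libraries A and B. Here the tags differed as much as the groups did, since wild-type library A lay 5.23 percentage points above wild-type library B. With the longest transcript as length, Hdac1 took 46.7% and 38.9% in cKO libraries A and B, and 42.4% and 36.9% in wild-type libraries A and B. Of its 50-base windows 35.3% occur in other genes too, against 0% for Hdac2. How counting treated such reads was not tested, so this lead is uncertain. Gatad2a made up 83.8% and 78.7% of its family in cKO libraries A and B, and 79.9% and 77.8% in wild-type libraries A and B. Mbd3 made up 88.6% and 85.2% of Mbd2 and Mbd3 in cKO libraries A and B, and 87.4% and 84.5% in wild-type libraries A and B. Both shares overlapped between the groups. The mean differences, cKO minus wild type, were 2.76 percentage points for Chd4, 2.86 for Mta1, −3.51 for Mta2, 0.65 for Mta3, 3.02 for Hdac1, 2.38 for Gatad2a and 0.98 for Mbd3. Without cKO library A the differences were −1.96 points for Chd4, −0.72 for Hdac1, −0.14 for Gatad2a and −0.73 for Mbd3, all of the opposite sign, and 1.18 for Mta1, −1.54 for Mta2 and 0.36 for Mta3. Mbd3 also changed sign, to −0.43 points, without wild-type library B. Exact two-sided permutation tests over the 4 libraries gave p = 0.333 for the MTA shares, the smallest that 2 against 2 allows, 0.667 for Hdac1, Gatad2a and Mbd3, and 1 for Chd4. Adjusted over these 7 comparisons the exact p was 0.778 for 6 shares and 1 for Chd4. The order of Mta1 and Mta2 rests on the length used. With the longest transcript as length, Mta2 took 48.4% and 47.5% in wild-type libraries A and B, against 46.6% and 46.9% for Mta1. Mta1 stayed above Mta2 in both cKO libraries with that length. With the coding length in place of the exon union, Mta2 averaged 47.7% in cKO and 51.4% in wild type, against 44.8% in cKO and 42.1% in wild type for Mta1, and Mta1 stayed above Mta2 in cKO library A alone.

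**Figure D2:**
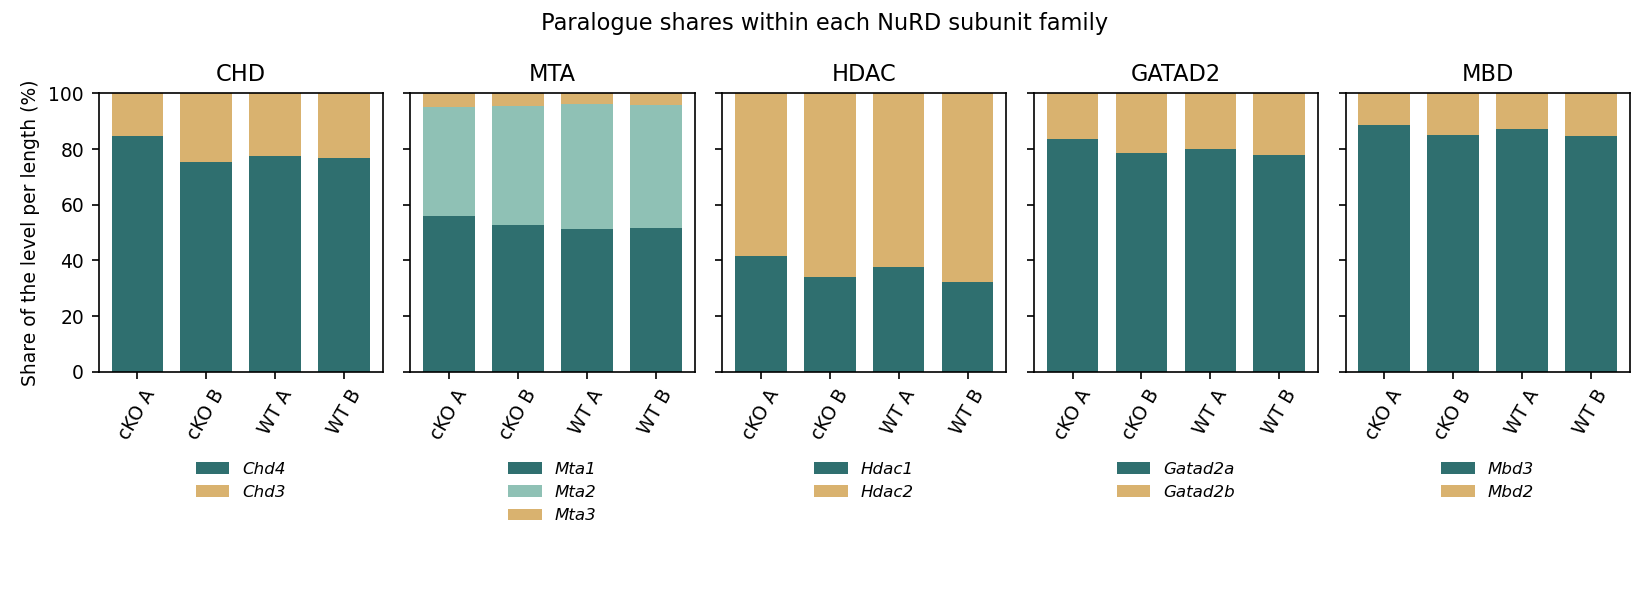
Share of each paralogue, in percent, of its family's summed normalized count per kilobase of annotated exon, with 1 stacked bar per library (cKO A, cKO B, wild type A, wild type B). Every bar has the same full height. The Chd4 part ends between 75.3% and 84.8%, the Mta1 part between 51.3% and 56.1%, and the Hdac1 part between 32.2% and 41.6%.

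The main comparison asked which genes differed between GFP-positive cKO and GFP-negative wild-type 4N cells, and for the NuRD subunits no difference passed the test. Log2 fold changes (cKO over wild type, from log2 of the normalized count plus 1) lay between −0.22 for Chd3 and 0.39 for Mta3. Of these values, 8 were above 0. In limma's moderated test with Benjamini-Hochberg adjustment over 14480 genes, 0 of 10 members passed an adjusted p of 0.05, and percent called over all genes was 0. The lowest limma adjusted p over all genes was 0.771, a value that several members share. At an unadjusted p under 0.05 limma gave 0 of 10 members and 274 genes, or 1.89%. On whole reads recovered from the normalized counts, edgeR called 0 genes (208 had an unadjusted p below 0.05). DESeq2 on the same reads called 1 gene, or 0.00691%, which was the rod gene Nr2e3 (log2 fold change −1.18, DESeq2 adjusted p = 0.0375), and no member. In the authors' deposited table the adjusted p of each of the 10 members was 1.00. The 95% intervals of the members' fold changes together spanned 0.566-fold, the lower bound of Chd3, to 1.98-fold, the upper bound of Mta3. Single genes had narrower intervals, such as 0.766-fold to 1.40-fold for Mta2. Changes within a gene's own interval were not resolved by 4 libraries.

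**Figure D3:**
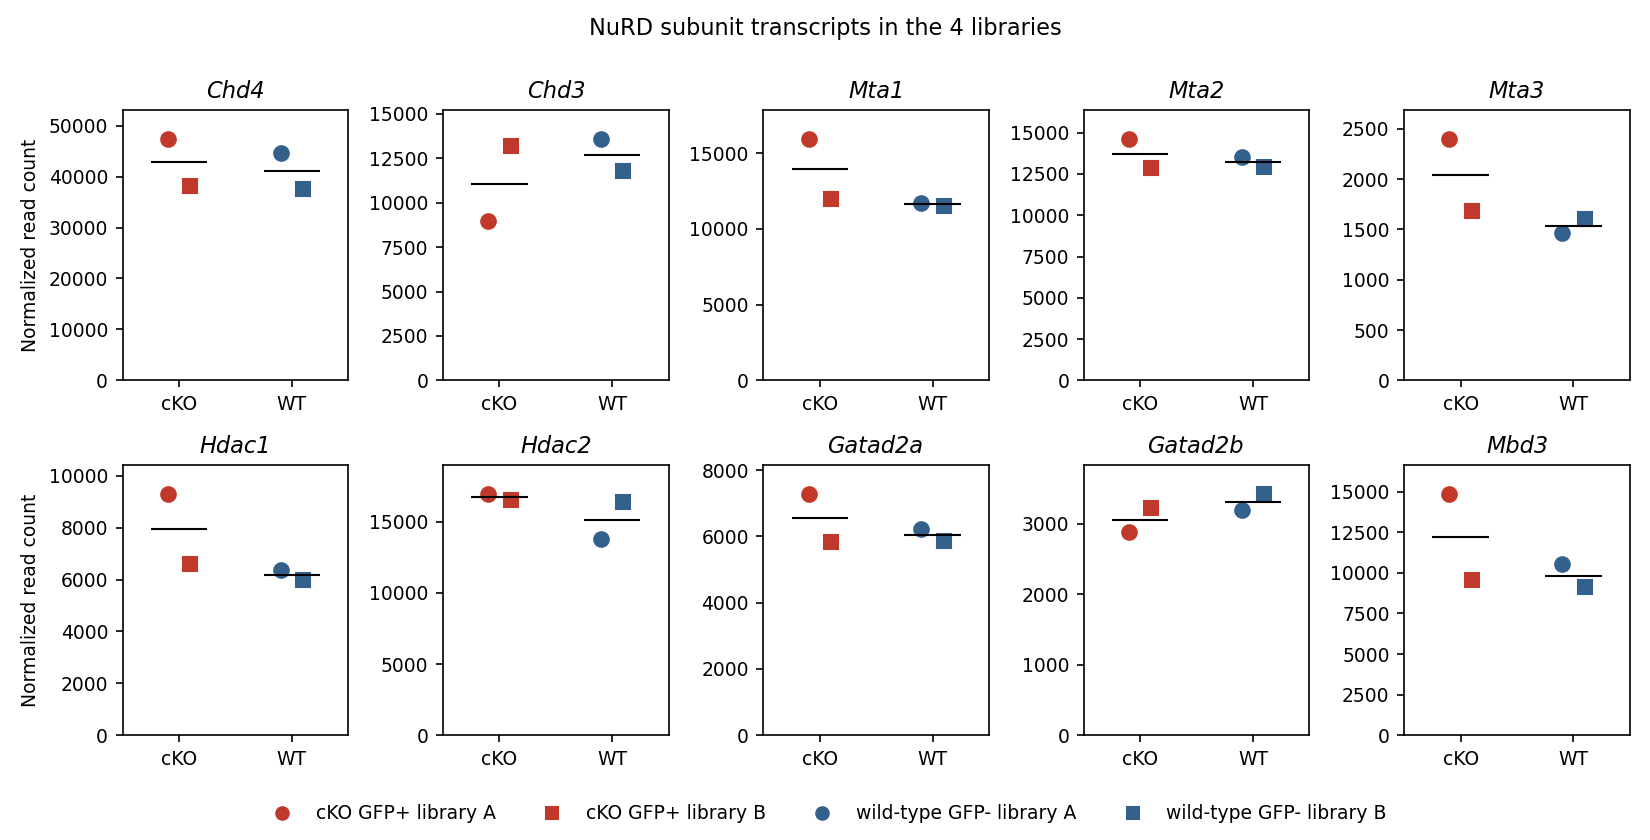
Normalized read counts of the 10 NuRD subunit genes, 1 panel each with an axis from 0, with 1 point per library (cKO left, wild type right; circles, tag A; squares, tag B) and a line at each group's mean. Both cKO points lie above both wild-type points for Mta1, Mta3, Hdac1 and Hdac2, and in most panels the circle of cKO library A is farthest from the other 3 points.

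Chd4 and Chd3 are the alternative motors, SNF2-type ATPases that slide nucleosomes. Chd4 (ENSMUSG00000063870, chr6:125095981-125130591, plus strand, GRCm38) had 47323 and 38239 normalized counts in cKO libraries A and B, against 44595 and 37473 in wild-type libraries A and B. The libraries of tag A were higher than those of tag B in both groups, and the groups overlapped. The log2 fold change of Chd4 was 0.06 ± 0.21 (SE; limma, adjusted p = 0.923), with a 95% interval of −0.47 to 0.59. Chd3 (ENSMUSG00000018474, chr11:69343273-69369406, minus strand) had 8955 and 13191 counts in cKO libraries A and B, against 13569 and 11796 in wild-type libraries A and B. The lowest value was that of cKO library A, while cKO library B lay between the wild-type libraries. The log2 fold change of Chd3 was −0.22 ± 0.24 (SE; limma, adjusted p = 0.776).

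Among the MTA scaffold genes, Mta1 (ENSMUSG00000021144, chr12:113098278-113137206, plus strand) had 15926 and 11962 counts in cKO libraries A and B, against 11734 and 11508 in wild-type libraries A and B. Both cKO values were above both wild-type values, but cKO library B exceeded the nearer wild-type library by little. The log2 fold change of Mta1 was 0.25 ± 0.21 (SE; limma, adjusted p = 0.771). Mta2 (ENSMUSG00000071646, chr19:8941875-8952303, plus strand) had 14605 and 12845 counts in cKO libraries A and B, against 13535 and 12918 in wild-type libraries A and B. The cKO libraries were the highest and the lowest of the 4, so the groups overlapped. Its log2 fold change was 0.05 ± 0.17 (SE). Mta3 (ENSMUSG00000055817, chr17:83706163-83821516, plus strand), the least abundant MTA gene, had 2397 and 1687 counts in cKO libraries A and B, against 1468 and 1607 in wild-type libraries A and B. The groups did not overlap, and the excess lay mostly in cKO library A. Mta3 had the highest log2 fold change of the 10 members, 0.39 ± 0.24 (SE; limma, adjusted p = 0.771), with a 95% interval of −0.21 to 0.99.

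Hdac1 and Hdac2 encode the class I deacetylases shared with the SIN3 and CoREST complexes. Hdac1 (ENSMUSG00000028800, chr4:129516104-129542713, minus strand) had 9290.2 and 6590.0 counts in cKO libraries A and B, against 6372 and 6001 in wild-type libraries A and B. Both cKO libraries were above both wild-type libraries, and the log2 fold change of Hdac1 was 0.34 ± 0.22 (SE; limma, adjusted p = 0.771). Of all 50-base windows in Hdac1 transcripts, 35.3% also occur in transcripts of other genes, and 31.7% occur in the processed pseudogene Gm10093 on chromosome 17. Gm10093 had 710 and 652 counts in cKO libraries A and B, against 670 and 556 in wild-type libraries A and B, so how the authors' counting split such reads makes the level of Hdac1 uncertain. For the other 9 members at most 0.27% of windows were shared on the same strand. Hdac2 (ENSMUSG00000019777, chr10:36974544-37001889, plus strand) had 16924 and 16505 counts in cKO libraries A and B, against 13805 and 16372 in wild-type libraries A and B. Here wild-type library A was the library apart and the other 3 were close to one another. The log2 fold change of Hdac2 was 0.15 ± 0.18 (SE; limma, adjusted p = 0.786).

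Gatad2a and Gatad2b encode the p66 proteins that tie the remodeller to the deacetylase core. Gatad2a (ENSMUSG00000036180, chr8:69907076-69996384, minus strand) had 7276 and 5825 counts in cKO libraries A and B, against 6225 and 5850.3 in wild-type libraries A and B. Gatad2b (ENSMUSG00000042390, chr3:90293178-90363407, plus strand) had 2886 and 3225 counts in cKO libraries A and B, against 3197 and 3424 in wild-type libraries A and B. Both overlapped between the groups, with cKO library A at the top for Gatad2a and at the bottom for Gatad2b. The log2 fold changes were 0.11 ± 0.19 for Gatad2a and −0.12 ± 0.18 for Gatad2b (SE; limma, adjusted p = 0.840 and 0.820). An antisense gene, 4930537H20Rik, covers 2.16% of the exon bases of Gatad2b. Mbd3 (ENSMUSG00000035478, chr10:80392539-80399550, minus strand), whose protein anchors the complex without the strong binding to methylated CpG that MBD2 has, had 14848 and 9533 counts in cKO libraries A and B. Wild-type libraries A and B had 10542 and 9104 counts of Mbd3. The high value of cKO library A set Mbd3 apart, since cKO library B lay between the wild-type libraries. The log2 fold change of Mbd3 was 0.28 ± 0.26 (SE; limma, adjusted p = 0.771).

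Both cKO libraries lay above both wild-type libraries for 4 of 10 members (Mta1, Mta3, Hdac1 and Hdac2), where the share over all genes tested was 17.2%, and below both for 0 of 10, where that share was 22.3%. Over the 8902 genes with a mean of at least 1000 normalized counts, as all members have, these shares were 20.9% above and 19.1% below. With 1 library left out, the groups did not overlap, in either direction, for 6 of 10 members without cKO library A (61.1% of all genes), 10 without cKO library B (87.7%), 7 with wild-type library A left out (70.6%) and 5 with library B of that group left out (59.5%), each near the share over all genes. The median log2 fold change was 0.13 over the members and −0.03 over all genes tested, of which 46.7% were above 0. Over the genes with a mean of at least 1000 counts it was 0.029, and 54.0% were above 0. The median absolute log2 fold change was 0.19 over the members, 0.26 over all genes tested and 0.21 over the genes with a mean of at least 1000 counts. Summed, the 10 members had 2251 and 2022 CPM of gene reads in cKO libraries A and B, against 2172 and 2008 in wild-type libraries A and B. The total followed the tag more than the group.

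Most of the difference lay in 1 library. Within tag A the median log2 ratio of cKO to wild type over the members was 0.26, with a range of −0.60 for Chd3 to 0.71 for Mta3, and over all genes it was −0.05. Within tag B the median over the members was 0.04, with a range of −0.09 for Gatad2b to 0.16 for Chd3, and over all genes it was −0.0030. In absolute size the ratio at tag A exceeded that at tag B for 10 of 10 members and for 86.7% of all genes. Chd3 took opposite signs at the tags, as did Mta2 and Gatad2a, whose ratios at tag B were −0.01 and −0.0062. cKO library A was the highest of the 4 libraries for 8 members (37.8% of all genes) and the lowest for Chd3 and Gatad2b (44.7%), so it was at an end for 10 of 10, where it was for 82.6% of all genes. cKO library B lay above both wild-type libraries for the same 4 members as above, against 28.7% of all genes, and below both for Mta2 and Gatad2a, against 32.4% of all genes.

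Without cKO library B the fit rests on cKO library A as the lone cKO sample, taken to vary as the wild-type libraries do, and limma then called 5768 genes, or 39.8%. Among them were 4 members: Mta3 at a log2 fold change of 0.64 (limma, adjusted p = 0.0153), Hdac1 at 0.59 (0.0118) and Mbd3 at 0.60 (0.0125) were higher in cKO, and Chd3 at −0.50 (0.0365) was lower. Over all genes 12.9% were called higher and 26.9% lower in that fit. Without cKO library A limma called 54 genes, or 0.373%, and 0 of 10 members, whose median log2 fold change was then 0.0025. Chd3, Chd4, Mta2, Gatad2a and Mbd3 then took the opposite sign, at log2 fold changes of 0.060, −0.10, −0.042, −0.051 and −0.039. Mta1, Hdac1 and Mta3 were then at 0.042, 0.092 and 0.14, and Gatad2b at −0.037. Hdac2, whose lowest value was in wild-type library A, was at 0.030 without that library.

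**Figure D4:**
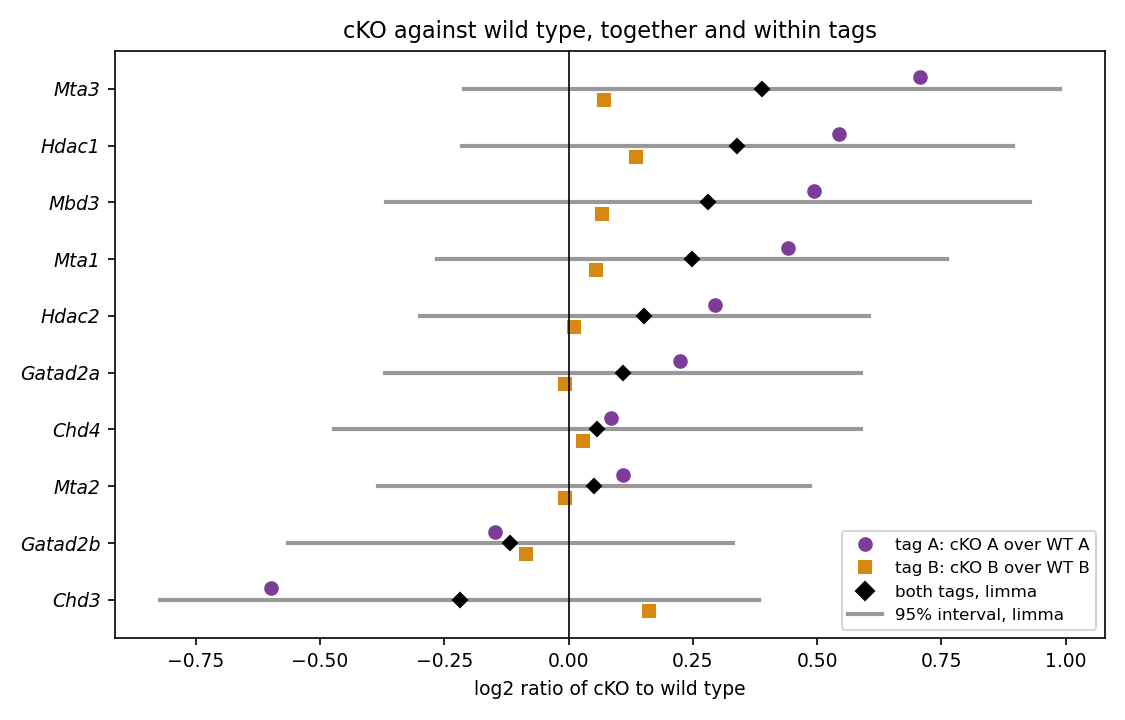
Log2 ratio of cKO to wild type for the 10 NuRD subunit genes, with circles for tag A, squares for tag B, diamonds for limma's estimate over both tags and grey bars for its 95% interval. Every interval includes 0, and the squares of tag B lie between −0.09 and 0.16 while the circles of tag A lie between −0.60 and 0.71.

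Transcript length moved with the ratio at tag A. Over all genes tested the median log2 ratio at tag A was 0.23 for genes whose longest transcript is under 2 kb, 0.0034 for 2 to 4 kb, −0.17 for 4 to 6 kb and −0.31 for 6 kb or more. At tag B the medians of the same classes were 0.05, −0.0088, −0.0097 and −0.02. The members stretch over these classes, with a longest transcript of 1.66 kb for Mbd3, 2.04 kb for Hdac1 and 2.83 kb for Mta1. It is 3.135 kb for Mta2, 3.25 kb for Hdac2, 3.29 kb for Mta3 and 5.01 kb for Gatad2a. For Chd4, Chd3 and Gatad2b it is 6.70, 7.26 and 7.44 kb. The members with the lowest ratios at tag A, Chd3 and Gatad2b, have the longest transcripts. The other members did not fall in order of length: Chd4 was at 0.09 and Gatad2a at 0.23, against 0.11 for Mta2, and Mta3 was highest at 0.71. Set against the median of its own length class, 9 of 10 members were above it at tag A, all but Chd3, and 9 of 10 at tag B, all but Gatad2b. Tag A gave a median distance from the class of 0.34, and tag B one of 0.04. Distances at tag B ran from −0.064 for Gatad2b to 0.18 for Chd3. Mta2, Gatad2a and Mbd3 cleared their class there by only 0.00062, 0.0035 and 0.012. The classes hold genes of every tested level, while all members have a mean of at least 1000 counts. Genes above that mean stood higher than all genes: 0.049 against −0.05 in the tag A median, and 0.013 against −0.0030 in that of tag B. Classes matched for level were not made. The part of transcript length in these values was not tested.

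**Figure D5:**
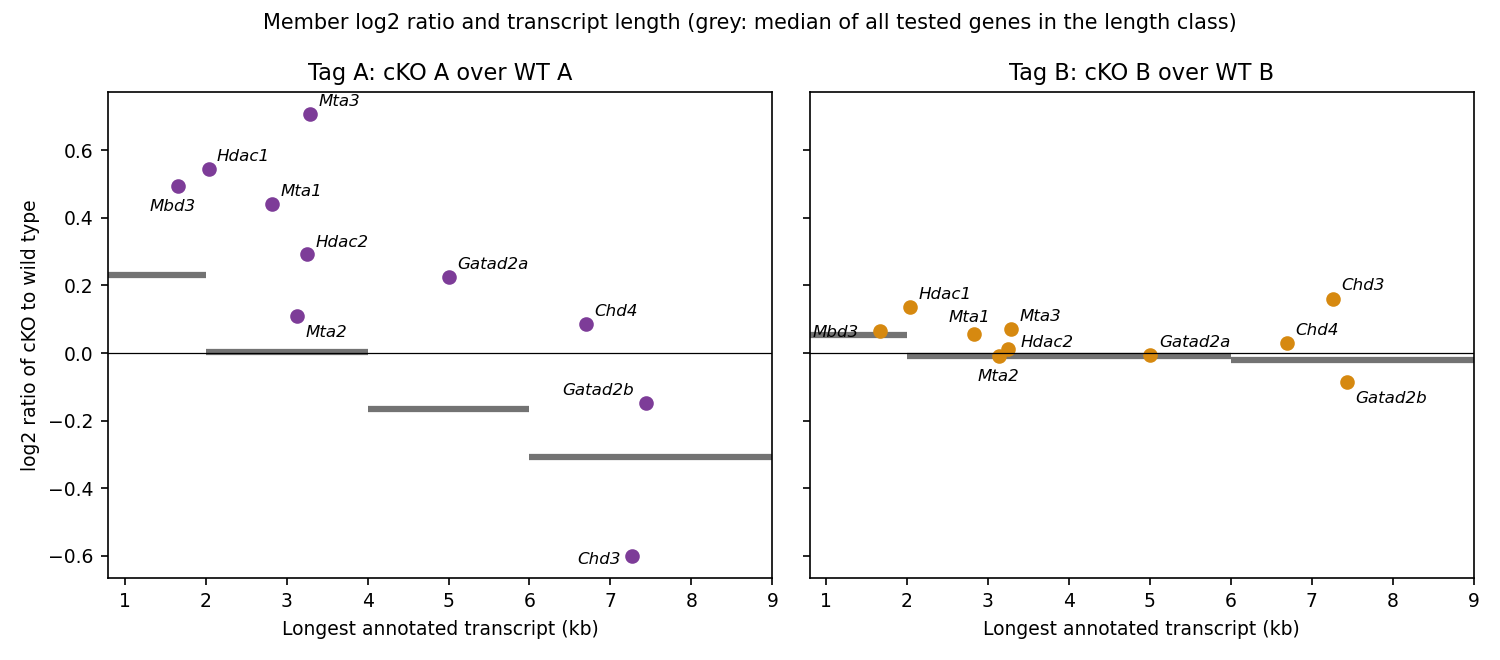
Log2 ratio of cKO to wild type against the length of the longest annotated transcript in kilobases, for tag A (left) and tag B (right), with 1 point per NuRD subunit gene and grey lines at the median of all tested genes in each length class. The grey lines step down at tag A, reaching −0.31 for the longest class, and lie near 0 at tag B, and Chd3 is the member below its line at tag A.

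Of the other 6 subunits of the complex, 0 were called by limma. Rbbp4, a histone chaperone that NuRD shares with PRC2 and SIN3, had 46750 and 38593 counts in cKO libraries A and B, against 31447 and 35103 in wild-type libraries A and B. Rbbp7, its paralogue, had 18986 and 15488 counts in cKO libraries A and B, against 13490 and 15169 in wild-type libraries A and B. Both were higher in both cKO libraries, at log2 fold changes of 0.35 ± 0.20 for Rbbp4 and 0.26 ± 0.19 for Rbbp7 (SE; limma, adjusted p = 0.771 each). Cdk2ap1, a small subunit first known as a CDK2-binding protein, had 4465 and 4618 counts in cKO libraries A and B, against 3627 and 4132 in wild-type libraries A and B. Its paralogue Cdk2ap2 went the other way, with 1422 and 1454 counts in cKO libraries A and B, against 1764 and 1704 in wild-type libraries A and B. Neither overlapped between the groups, and the log2 fold changes were 0.23 for Cdk2ap1 and −0.27 for Cdk2ap2 (limma, adjusted p = 0.771 each). Mbd2, the methyl-CpG-binding alternative to Mbd3, and Chd5, the motor enriched in neurons, overlapped between the groups, at log2 fold changes of 0.15 and −0.10. For these 6 genes the median log2 change was 0.19 over both tags, 0.31 within tag A and 0.08 within tag B.

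Complexes and families that share subunits or folds with NuRD gave 0 called genes in limma, and their medians differed mainly at tag A. Of the SIN3 complex, which also carries Hdac1 and Hdac2, 8 of 13 genes were higher in cKO and the median log2 change was 0.08. In this list, which leaves out the subunits shared with NuRD, the most abundant genes, Sin3a and Sin3b, had values of −0.0041 and 0.26. Of PRC2, 4 of 7 were higher, with a median of 0.07. This list keeps the subunits shared with NuRD, and Rbbp4 and Rbbp7, given above, were among its higher genes at 0.35 and 0.26. The CoREST list had 0 of 9 genes higher and a median of −0.16, with Rcor2 at −0.09 and the demethylase gene Kdm1a at −0.10. At tag B its median was −0.01. This list also leaves out the shared Hdac1 and Hdac2, which were higher at 0.34 and 0.15, so it does not describe the whole complex. Other CHD remodellers had 1 of 7 higher and a median of −0.43, with −0.84 within tag A against 0.0046 within tag B. Chd7, the most abundant of them, had 12517 and 24966 counts in cKO libraries A and B, against 24298 and 24747 in wild-type libraries A and B. Only cKO library A was apart there, and Chd8 had a log2 fold change of −0.32. These CHD genes had a median longest transcript of 9.09 kb, and the members one of 3.27 kb.

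The other class I to IV deacetylases had 4 of 9 genes higher and a median of −0.00043, with Hdac5 at −0.07 and Hdac3 at 0.04. The rest of the MBD family had 1 of 6 higher and a median of −0.27, and its most abundant gene, Mbd6, was at −0.59. The higher gene was Mbd2, which is also counted above among the other NuRD subunits. Mbd6 had 8469 and 12833 counts in cKO libraries A and B, against 16699 and 14765 in wild-type libraries A and B, so the groups did not overlap (limma, adjusted p = 0.771). Of the partners and recruiters of NuRD, 6 of the 18 tested were higher, with a median of −0.09. The most abundant of these were Zfp219 at 0.04 and Kdm1a at −0.10.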

How the data were processed

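Per the submitters' processing notes, reads were handled with FastQC, TopHat, HTSeq and DESeq on mm10. Tool versions, annotation and strand setting: not given in the sources used here; the labels' design text describes a stranded kit. The authors deposited 1 table of 22690 genes with normalized read counts (a signal per gene and library, scaled by size factors), with their p-values and adjusted p-values per gene. Both cKO columns are headed as replicate 2, so they were assigned to the group only, and tags A and B come from numbers in the column names.

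Genes were found by symbol. Values gave whole reads for 100% of entries within 0.01 reads, and 3 reads equal 8.38 normalized counts in cKO library A and 1.98 to 2.28 in the others. The test was limma 3.58.1 (R 4.3.3; trend) on log2(normalized count + 1), for genes with a mean of at least 10, 2 against 2 libraries. Alternatives used edgeR 4.0.16 and DESeq2 1.42.0 on recovered reads, other pseudocounts, filters and scaling, a tag block and leaving out libraries. limma, edgeR and DESeq2 were first run on simulated data, and that outcome is not given here. Lengths and loci come from GENCODE M21, which matched 96.1% of identifiers, and promoters from RefSeq GRCm38.p6. Members and lists were chosen with earlier results of these data known. All members and other NuRD subunits are named, and of other complex lists the 2 with the highest mean, except 1 gene that is not reported here; Mbd6 and Chd7 were given per library, and markers named, after their values were seen. Intervals are limma's and cover the spread between these 4 libraries.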

Additional observations from a re-analysis of the deposited data

How the results depend on the processing

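Pseudocounts of 0.5 and 5, a minimum mean of 50, no filter, limma without trend, median rescaling and edgeR all left 0 genes and 0 members called. DESeq2 called 1 gene. Over those settings the member median stayed between 0.13 and 0.14. Leaving out 1 library gave 0 to 5768 genes called, 0 to 4 members called, a member median of 0.0025 to 0.24 and 5 to 10 members whose groups did not overlap, where 59.5% to 87.7% of all genes did not. Log2 fold changes then ranged over −0.50 to 0.060 for Chd3, −0.10 to 0.21 for Chd4, −0.042 to 0.14 for Mta2, −0.051 to 0.27 for Gatad2a and −0.039 to 0.60 for Mbd3. They ranged over 0.042 to 0.45 for Mta1, 0.14 to 0.64 for Mta3, 0.092 to 0.59 for Hdac1, 0.030 to 0.28 for Hdac2 and −0.20 to −0.037 for Gatad2b. Share differences ranged over −1.96 to 7.48 points for Chd4, 1.18 to 4.54 for Mta1, −5.48 to −1.54 for Mta2, 0.36 to 0.94 for Mta3, −0.72 to 6.76 for Hdac1, −0.14 to 4.91 for Gatad2a and −0.73 to 2.69 for Mbd3. Log2 fold changes of Chd3, Chd4, Mta2, Gatad2a and Mbd3 took the opposite sign without cKO library A, and that of Chd4 also without wild-type library B (−0.07). Mta1, Mta3, Hdac1, Hdac2 and Gatad2b kept their sign in each of these fits. The cause was not tested. With the coding length the Mta3 share differed by 1.10 percentage points, against 0.65 with the exon union. With the tags as a replicate block, limma called 0 genes and 0 members and the member median was 0.13; same-tag deviations from the group means correlated at 0.258, and with only 2 tags the libraries share only a number. Depth was lowest in cKO library A, at 22326119 reads; members had 858 to 58739 reads per library, so the spread between libraries, not counting, limits these values. The within-tag medians and the overlap counts without a library were chosen after seeing the data.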
